A study of Mus musculus with 16 samples.

Results

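Cell cycle and proliferation genes were followed in the kidney cortex of 3 month old mice that lacked Vhl, Pbrm1 or both in the tubule. The set named 42 genes, chosen by name but with earlier results of these data known. Of these, 40 had a probe set that lists 1 gene symbol, among 22180 genes measured in the same way. They comprise 18 mitotic genes, 10 S-phase genes and 12 G1 genes. Ccnb1 and Ccne2 are not analysed here.

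The 16 Affymetrix arrays form 4 groups of 4. Double mutants carry floxed alleles of both genes and Cre (VhlF/FPbrm1F/FKsp-Cre), Vhl mutants carry VhlF/FKsp-Cre, Pbrm1 mutants carry Pbrm1F/FKsp-Cre, and Wildtype mice are C57BL/6. All 3 mutant groups are on a mixed background of C57BL/6, BALB/c and 129, so in every comparison with Wildtype the genotype cannot be told apart from the strain. Wildtype also enters every interaction given below, so the same limit holds there. Ksp-Cre is under the control of the Cdh16 promoter, which is active in tubule epithelium, so endothelium, immune cells and other cortical cells keep both genes. The study set out to find early transcriptional changes that may matter for clear cell renal cell carcinoma. Its design has no tumour sample. Most arrays share a number in their descriptions with another array of the same group, and double mutant replicates 2 and 3 have the same description. The numbers of the Vhl mutants lie apart from those of all other groups, and the labels do not say what the numbers mark. Whatever they mark cannot be told apart from genotype in comparisons with Vhl mutants. The labels do not state how many animals each group had. The p-values therefore reflect how much these arrays vary, and some of that variation may be technical.

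Cells enter the cycle when cyclin D kinases, and then cyclin E with Cdk2, phosphorylate the retinoblastoma protein and release E2F factors, a step that Cdk inhibitors of the Cip/Kip and Ink4 families oppose. E2F targets include the MCM helicase, which unwinds replication origins, and the enzymes that supply nucleotides in S phase. Genes of G2 and mitosis are switched on later by the MuvB complex with B-Myb and Foxm1, largely through the CHR promoter element. Most tubule cells of the adult kidney are out of the cycle, and they re-enter it after injury.

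Promoters of the members were examined for the short elements that are known to time these genes, and 5 are shown because the results below turn on these genes. Mki67, Nusap1, Kif11 and Top2a are mitotic members with the smallest adjusted p in Vhl or double mutants against Wildtype, and Mcm6 was added after its values were seen. Each line gives 300 bases 5′ to 3′ along the gene's strand, most of them before the RefSeq start and the rest after it (GRCm38.p6). Capitals mark TTTGAA (the CHR core), CCAAT and E2F-type cores on either strand. The E2F-type cores searched were TTTCGCG, the related string TTTGGCG, and also TTTCCCG.
Mki67, chr7:135716330-135716629, minus strand: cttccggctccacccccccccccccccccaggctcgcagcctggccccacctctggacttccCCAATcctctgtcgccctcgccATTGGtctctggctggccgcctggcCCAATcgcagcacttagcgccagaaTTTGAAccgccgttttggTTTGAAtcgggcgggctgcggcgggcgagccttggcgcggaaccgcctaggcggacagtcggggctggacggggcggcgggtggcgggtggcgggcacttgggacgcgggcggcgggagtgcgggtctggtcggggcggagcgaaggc
Nusap1, chr2:119618048-119618347, plus strand: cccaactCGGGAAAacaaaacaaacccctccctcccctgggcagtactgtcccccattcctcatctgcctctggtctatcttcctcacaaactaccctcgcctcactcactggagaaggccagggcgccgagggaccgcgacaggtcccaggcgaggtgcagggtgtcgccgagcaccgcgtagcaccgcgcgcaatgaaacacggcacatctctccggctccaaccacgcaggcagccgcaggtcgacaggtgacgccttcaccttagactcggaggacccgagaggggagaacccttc
Kif11, chr19:37376132-37376431, plus strand: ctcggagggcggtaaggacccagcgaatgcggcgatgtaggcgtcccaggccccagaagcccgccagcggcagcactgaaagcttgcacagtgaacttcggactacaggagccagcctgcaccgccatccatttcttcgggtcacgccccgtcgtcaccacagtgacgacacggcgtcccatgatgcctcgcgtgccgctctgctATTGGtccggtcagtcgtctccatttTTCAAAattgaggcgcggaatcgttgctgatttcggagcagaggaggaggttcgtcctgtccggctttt
Top2a, chr11:99024140-99024439, minus strand: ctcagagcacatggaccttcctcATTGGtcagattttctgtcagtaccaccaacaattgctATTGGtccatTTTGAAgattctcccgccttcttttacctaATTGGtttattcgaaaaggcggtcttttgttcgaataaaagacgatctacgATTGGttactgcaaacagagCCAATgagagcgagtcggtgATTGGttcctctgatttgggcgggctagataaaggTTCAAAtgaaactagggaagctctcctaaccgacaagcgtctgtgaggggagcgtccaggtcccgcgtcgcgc
Mcm6, chr1:128359656-128359955, minus strand: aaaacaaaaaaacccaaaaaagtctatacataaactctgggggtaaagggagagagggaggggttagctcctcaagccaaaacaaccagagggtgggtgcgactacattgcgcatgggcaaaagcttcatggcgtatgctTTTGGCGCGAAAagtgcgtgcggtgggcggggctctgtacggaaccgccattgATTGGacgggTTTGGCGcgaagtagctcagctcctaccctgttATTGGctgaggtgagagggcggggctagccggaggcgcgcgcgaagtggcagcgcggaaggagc
The Mki67, Kif11 and Top2a windows hold both TTTGAA and CCAAT. The Nusap1 window holds neither and has 1 match to TTTCCCG, and the Mcm6 window holds CCAAT and E2F-type cores, 2 of which overlap in its first capital run. Over the matched members, TTTGAA was found in 11 of 15 windows of 14 mitotic genes (73.3%), in 1 of 10 windows of 9 S-phase genes and in 1 of 13 windows of 10 G1 genes (7.69%), against 17.9% of all 32851 windows of the same length. An E2F-type core was found in 3 of 15 mitotic, 4 of 10 S-phase and 3 of 13 G1 windows, against 5.58% of all windows. CCAAT was found in 86.7% of mitotic, 80.0% of S-phase and 38.5% of G1 windows, against 37.4% of all windows. A match is a string of letters and not a measured binding site.

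All values below are log2 expression levels from the deposited table, and all differences are log2 differences of fitted group means, which allow for arrays that share a description number, the first group named minus the second. Differences were tested with limma over all 22180 genes, and "called" means a Benjamini-Hochberg adjusted p under 0.05. The median standard error (SE) of a difference from Wildtype was 0.11. Levels of different probe sets are not comparable with each other. The median level of an array was 5.18 to 5.27, and its lower quartile 3.60 to 3.72. Proximal tubule markers had a median level of 11.5 to 11.84 on every array, near the top of the scale. Vhl and Pbrm1 themselves gave overlapping levels in mutants and Wildtype. Vhl lay between 6.08 and 6.51 in double mutants, 6.25 and 6.30 in Vhl mutants, 6.20 and 6.30 in Pbrm1 mutants and 6.23 and 6.55 in Wildtype, and Pbrm1 lay between 8.02 and 8.33 over all 16 arrays. The labels do not say which exons are removed or which of them the probes cover, and cells without Cre keep both genes, so these values do not check the genotypes.

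The mitotic genes were the class that stood highest in Vhl mutants. In Vhl mutants against Wildtype, 17 of the 18 mitotic members had a difference above 0, with a median of 0.24, whereas over all genes 47.6% lay above 0 and the median was -0.01. Of the members, 2 were called, both mitotic and both higher (Mki67 and Kif11), beside 3.84% of all genes called in either direction and 2.04% called higher. With each gene set to its own Wildtype mean, the median over mitotic members was 0.01 to 0.11 on the double mutant arrays, 0.19 to 0.29 on the Vhl mutant arrays, -0.08 to 0.09 on the Pbrm1 mutant arrays and -0.08 to 0.06 on the Wildtype arrays. The lowest Vhl mutant array thus stood above the highest array of every other group. Members of a class are measured on the same arrays, so their number adds no replicates.

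**Figure D1:**
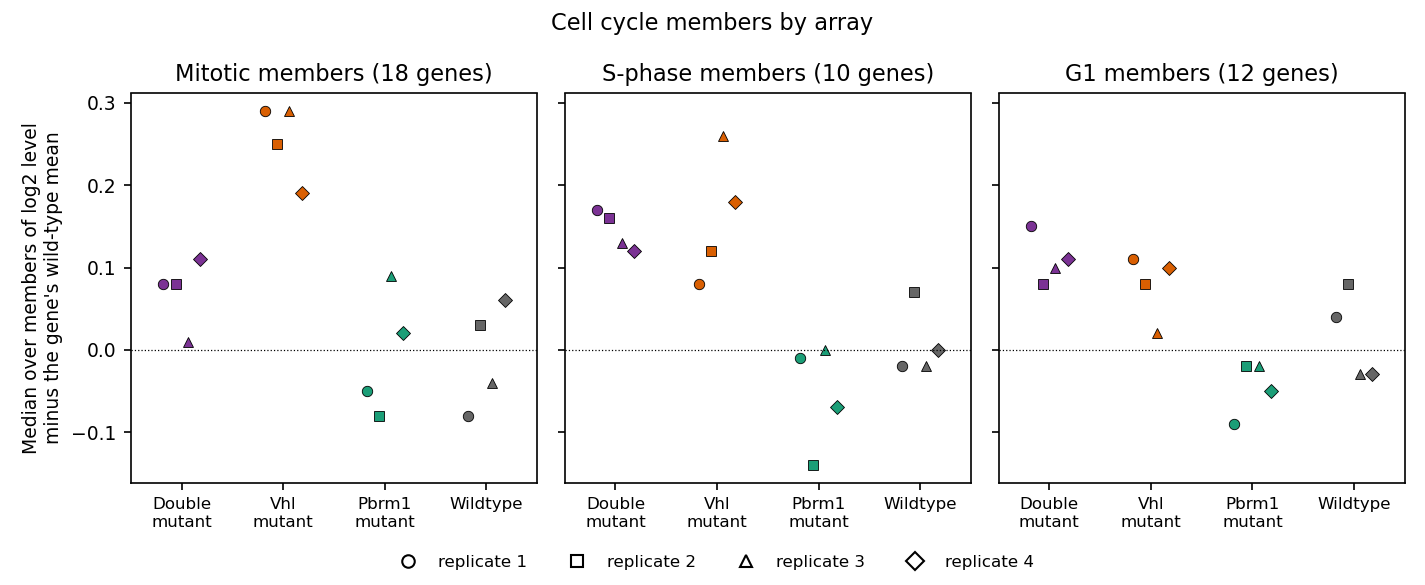
Median over members of the log2 level minus each gene's Wildtype mean, by array, for mitotic (18 genes), S-phase (10 genes) and G1 (12 genes) members; each point is 1 array and the dotted line is the Wildtype mean. The 4 Vhl mutant arrays lie between 0.19 and 0.29 for mitotic members, above all other arrays.

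Mki67 encodes the Ki-67 protein, the usual histological marker of cycling cells. Its level was 6.30, 5.97, 5.80 and 5.81 in double mutants, 6.34, 6.30, 6.31 and 6.65 in Vhl mutants, 5.53, 5.27, 5.63 and 5.65 in Pbrm1 mutants and 5.20, 5.78, 5.41 and 5.76 in Wildtype. All Vhl mutant arrays and all double mutant arrays lay above every Wildtype array, while Pbrm1 mutant and Wildtype arrays overlapped. Mki67 rose 1.82-fold in Vhl mutants against Wildtype (0.87 ± 0.15 (SE), adjusted p = 0.0016, limma), and that call held in all 38 alternatives tried. In double mutants against Wildtype the difference was 0.43 ± 0.15 with an adjusted p of 0.066, which did not pass. Double mutants against Vhl mutants gave -0.44 ± 0.15 (adjusted p = 0.092, limma), also not called, with the highest double mutant array just below the lowest Vhl mutant array. The interaction, double mutant minus Vhl mutant minus Pbrm1 mutant plus Wildtype, was -0.42 ± 0.21 (adjusted p = 0.33, limma).

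Kif11 encodes Eg5, the kinesin that pushes spindle poles apart. Its level was 3.96, 3.90, 4.10 and 4.26 in double mutants, 4.57, 4.39, 4.49 and 4.52 in Vhl mutants, 3.93, 3.89, 4.16 and 3.90 in Pbrm1 mutants and 4.10, 4.01, 4.03 and 4.10 in Wildtype. The Vhl mutant arrays stood above all 12 others, and the other 3 groups overlapped. Kif11 rose in Vhl mutants against Wildtype (0.44 ± 0.11, adjusted p = 0.024, limma) and against Pbrm1 mutants (0.53 ± 0.11, adjusted p = 0.0028). It was lower in double mutants than in Vhl mutants (-0.43 ± 0.11, adjusted p = 0.017, limma). The Wildtype comparison rests on single arrays: the adjusted p was 0.061 without Vhl mutant replicate 1, 0.051 without Vhl mutant replicate 3 and 0.054 without Wildtype replicate 2, within a range of 0.013 to 0.15 over 38 alternatives. The comparison of double with Vhl mutants lost its call without double mutant replicate 2 (adjusted p = 0.053, range 0.0080 to 0.70).

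Top2a encodes the topoisomerase that untangles sister chromatids, and Prc1 a protein that bundles microtubules of the central spindle. Top2a stood at 4.68, 4.46, 4.22 and 4.71 in double mutants, 4.10, 4.67, 4.86 and 4.54 in Vhl mutants, 4.17, 3.73, 4.07 and 4.07 in Pbrm1 mutants and 3.79, 4.08, 4.05 and 4.0 in Wildtype. Both Vhl-deleted groups lay above every Wildtype array, and Vhl mutant replicate 1 was the lowest of them. Top2a rose in double mutants against Wildtype (0.54 ± 0.16, adjusted p = 0.030, limma), while the difference of similar size in Vhl mutants did not pass (0.56 ± 0.16, adjusted p = 0.053). The call in double mutants ended without double mutant replicate 1 (adjusted p = 0.080), double mutant replicate 4 (0.11) or Wildtype replicate 1 (0.086), in a range of 0.011 to 0.12 over 38 alternatives. Prc1 was 4.27, 4.13, 3.97 and 4.09 in double mutants, 4.48, 4.39, 4.58 and 4.39 in Vhl mutants, 4.06, 4.03, 3.90 and 4.11 in Pbrm1 mutants and 4.26, 4.07, 4.08 and 4.01 in Wildtype. Every Vhl mutant array exceeded all others for Prc1, which was called higher in Vhl mutants against Pbrm1 mutants (0.44 ± 0.10, adjusted p = 0.011, limma) but not against Wildtype (0.36 ± 0.10, adjusted p = 0.059). The Prc1 call was lost in 6 of 38 alternatives, with a highest adjusted p of 0.080.

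Nusap1, which binds spindle microtubules near chromosomes, was the called mitotic member that stood lower without Pbrm1. It stood at 4.97, 4.62, 4.91 and 4.64 in double mutants, 5.78, 5.58, 5.61 and 5.46 in Vhl mutants, 4.74, 4.62, 4.74 and 4.94 in Pbrm1 mutants and 5.17, 5.70, 4.99 and 5.36 in Wildtype. Both groups without Pbrm1 lay below every Wildtype array, while Vhl mutants and Wildtype overlapped. Nusap1 fell in double mutants (-0.53 ± 0.14, adjusted p = 0.017, limma) and in Pbrm1 mutants (-0.55 ± 0.14, adjusted p = 0.030) against Wildtype. Against Vhl mutants the double mutants were 1.78-fold lower (-0.83 ± 0.14, adjusted p = 8.2e-04, limma), and that call held in all 38 alternatives, as did Vhl mutants against Pbrm1 mutants (0.85 ± 0.14, adjusted p = 3.9e-04). The calls against Wildtype were less stable. In double mutants the adjusted p was 0.066 without double mutant replicate 4 and 0.052 without Wildtype replicate 2 (range 0.0053 to 0.10), and in Pbrm1 mutants it was 0.059, 0.080 and 0.070 without Pbrm1 mutant replicates 1, 2 and 3 and 0.085 and 0.064 without Wildtype replicates 2 and 4 (range 0.011 to 0.19). Cenpe, a kinetochore kinesin that was not called, was likewise lower on every array of both groups than on every Wildtype array, with 4.19, 4.11, 4.21 and 4.20 in double mutants, 4.39, 4.18, 4.36 and 4.37 in Vhl mutants, 4.05, 4.11, 4.19 and 4.15 in Pbrm1 mutants and 4.25, 4.31, 4.40 and 4.40 in Wildtype. Cenpf, another kinetochore protein, had means of 4.19 for double mutants, 4.40 for Vhl mutants, 4.12 for Pbrm1 mutants and 4.33 for Wildtype, and its arrays overlapped with Wildtype in each. Nusap1 and Top2a are also listed in probe sets with several symbols, which were left out.

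**Figure D2:**
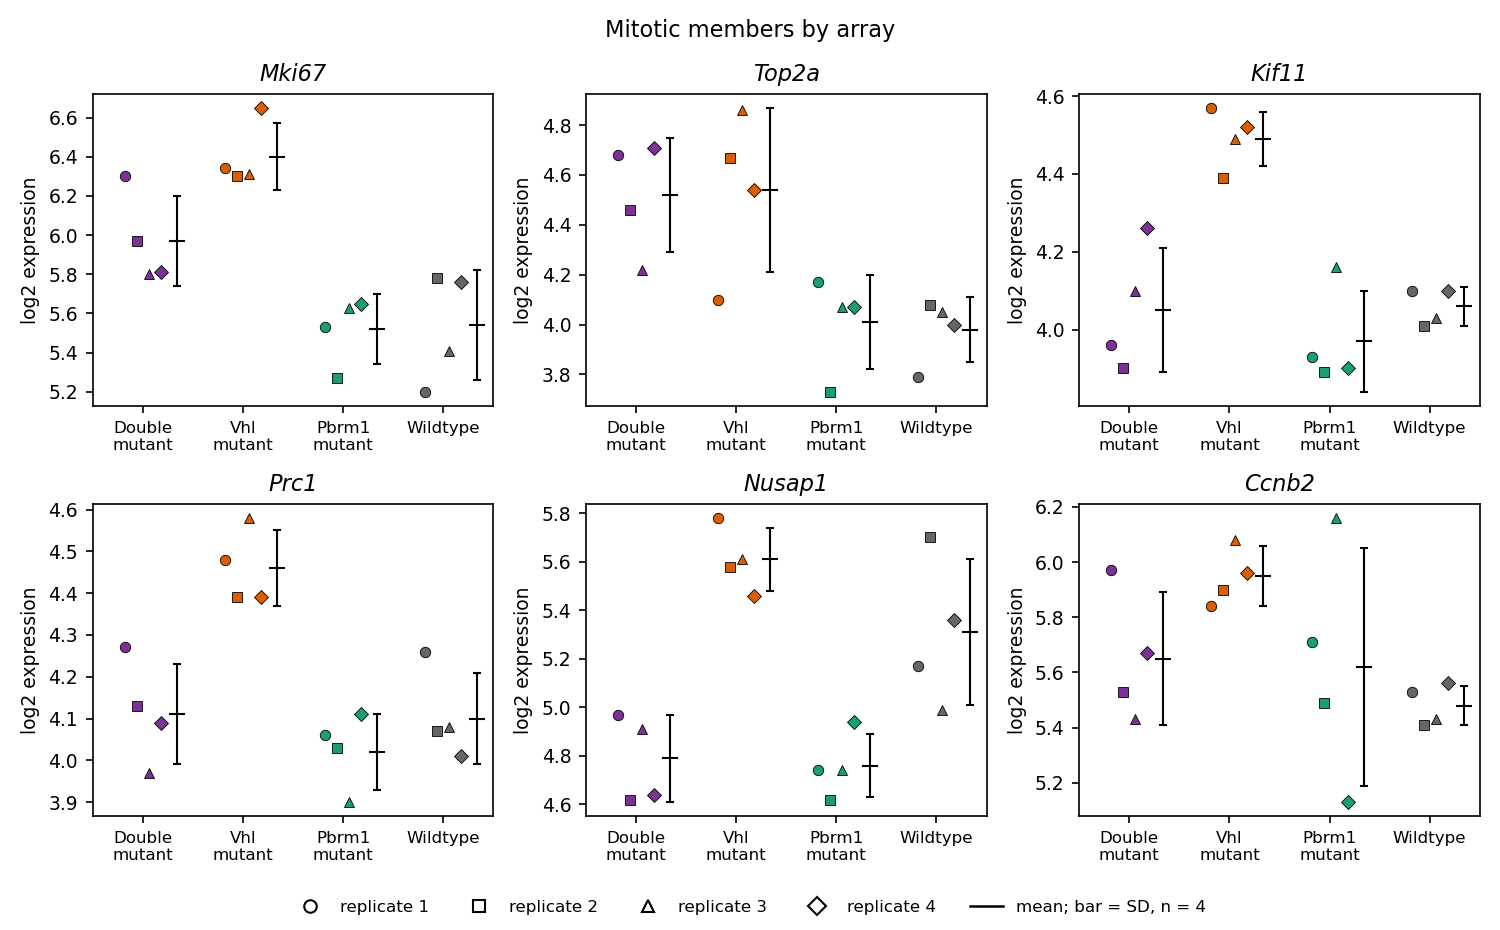
Log2 expression of 6 mitotic members by array in the 4 groups; each symbol is 1 array, and the bar gives the mean ± SD (n = 4). Vhl mutant arrays stand above Wildtype arrays for Mki67, Top2a, Kif11, Prc1 and Ccnb2, and Nusap1 is lower in double mutants and Pbrm1 mutants than in Wildtype.

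The other 13 mitotic members were called in no comparison, and their differences from Wildtype ran from -0.21 to 0.46 over the 3 mutant groups. Ccnb2, a cyclin partner of Cdk1, had the largest of these, 0.46 in Vhl mutants. It was 5.97, 5.53, 5.43 and 5.67 in double mutants, 5.84, 5.90, 6.08 and 5.96 in Vhl mutants, 5.71, 5.49, 6.16 and 5.13 in Pbrm1 mutants and 5.53, 5.41, 5.43 and 5.56 in Wildtype. Vhl mutant and Wildtype arrays did not overlap for Ccnb2, nor for Ccna2, the S and G2 cyclin, or Plk1, a mitotic kinase. In all, 7 of the 18 mitotic members were higher on every Vhl mutant array than on every Wildtype array, beside 5.07% of all genes. Cdk1, the mitotic kinase itself, ranged from 4.12 to 5.17 and stood at 4.22 and 4.40 on Pbrm1 mutant replicates 1 and 2 and at 5.07 and 5.17 on replicates 3 and 4. The spread within that group was larger than any difference between group means for Cdk1. Over all 16 arrays, Ccna2 ranged from 4.49 to 5.10, Plk1 from 4.63 to 5.24, and the spindle kinases Aurka and Aurkb from 4.22 to 4.99 and from 4.49 to 5.07. The spindle checkpoint kinase Bub1b ranged from 3.57 to 4.41, Cenpf from 4.0 to 4.47, the cytokinesis kinesin Kif20a from 4.05 to 4.58, and Foxm1 from 4.17 to 4.83. Bub1 (2.98 to 3.50) and Birc5, which encodes survivin (2.85 to 3.65), had means below the lower quartile of the arrays, where signal may be background. The called members Kif11, Prc1 and Top2a were low as well. Their means over all 16 arrays were 4.14, 4.18 and 4.26, above the lower quartile but below the median level of the arrays.

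In double mutants against Wildtype, 13 of 18 mitotic members lay above 0 (45.1% of all genes) with a median of 0.06, and in Pbrm1 mutants against Wildtype 10 of 18 (48.7% of all genes) with a median of 0.02. In double mutants against Vhl mutants, 3 of 18 lay above 0 and the median was -0.20, beside 47.6% and -0.01 for all genes, and 6 of the 18 were lower on every double mutant array than on every Vhl mutant array, beside 6.25% of all genes. Of the members, 3 were called in that comparison, all lower in double mutants (Kif11, Nusap1 and the S-phase gene Mcm6), beside 6.35% of all genes called in either direction and 2.55% called lower. For the interaction, 4 of 18 mitotic members lay above 0, with a median of -0.27, beside 49.6% of all genes and a median of 0.00 over them. None of the 18 interaction terms was called, and 2 had an unadjusted p under 0.05, as did 15.9% of all genes. These comparisons share arrays, so their values are not independent of each other.

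Marker genes of other cell types also differed between the groups. Relative to the Wildtype mean, the median over 12 macrophage markers was 0.64 to 0.98 on double mutant arrays, 0.57 to 0.88 on Vhl mutant arrays, -0.13 to -0.08 on Pbrm1 mutant arrays and -0.08 to 0.14 on Wildtype arrays, and their summed linear level was 1449 to 1688, 1331 to 1709, 871 to 912 and 894 to 1064 in the same groups. Of these 12 markers, 7 were called higher in double mutants and 10 in Vhl mutants against Wildtype. Endothelial markers gave 0.20 to 0.37, 0.32 to 0.51, -0.24 to -0.15 and -0.07 to 0.07, and markers of injured tubule 1.18 to 1.43, 0.66 to 0.96, -0.29 to -0.17 and -0.02 to 0.07, in double mutants, Vhl mutants, Pbrm1 mutants and Wildtype. Of the endothelial markers 5 of 8 were called higher in each of the double and Vhl mutants, and of the injury markers 9 of 9 in double mutants and 6 of 9 in Vhl mutants. No macrophage, endothelial or injury marker had a mean below the lower quartile. Summed T and B lymphocyte markers were 172 to 199 in double mutants, 198 to 224 in Vhl mutants, 164 to 173 in Pbrm1 mutants and 164 to 187 in Wildtype. None of these 9 was called against Wildtype by limma. In double, Vhl and Pbrm1 mutants 2, 5 and 0 had an unadjusted p under 0.05, as did 5194, 3640 and 3561 of all 22180 genes. Summed distal nephron markers were 11218 to 11990, 11257 to 12014, 10180 to 11525 and 12174 to 12909 in the same groups. Adipose markers summed to 669 to 1445, 609 to 1045, 859 to 2239 and 590 to 965, and were highest on replicate 3 of the Pbrm1 mutants, replicate 3 of the double mutants and replicate 2 of the Vhl mutants. Macrophage and injury markers thus stood high in both double and Vhl mutants. The median over T and B lymphocyte markers was -0.04 to 0.08 on double mutant arrays and 0.10 to 0.26 on Vhl mutant arrays. It was -0.08 to 0.01 on Pbrm1 mutant arrays and -0.16 to 0.06 on Wildtype arrays. The part of these marker lists in the mitotic result was not tested. In whole cortex a change in the number of cycling cells and a change in RNA per cell cannot be told apart.

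S-phase members showed opposite changes within 1 complex. The 6 subunits Mcm2 to Mcm7 form a single ring around DNA, yet in double mutants Mcm6 fell while Mcm3 and Mcm7 rose and Mcm2, Mcm4 and Mcm5 were not called against Wildtype. Of all members, 6 were called in double mutants against Wildtype, 4 higher and 2 lower, beside 12.2% of all genes (6.64% higher and 5.56% lower). The share of members called was close to that background. Arrays of the 2 groups did not overlap in 5 members that were higher and 3 that were lower in double mutants, beside 9.21% and 8.53% of all genes.

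Mcm6 was 6.18, 6.23, 5.37 and 5.15 in double mutants, 6.79, 6.68, 6.67 and 6.82 in Vhl mutants, 6.56, 6.29, 6.36 and 6.40 in Pbrm1 mutants and 6.79, 6.72, 6.69 and 6.88 in Wildtype. All double mutant arrays lay below all others, and within the group replicates 3 and 4 lay lower than replicates 1 and 2, although replicate 3 has the description of replicate 2. Mcm6 was 2.09-fold lower in double mutants than in Wildtype (-1.06 ± 0.18, adjusted p = 3.8e-04, limma) and 2.04-fold lower than in Vhl mutants (-1.03 ± 0.18, adjusted p = 0.0010). Both calls held in all 38 alternatives, with differences from -1.62 to -0.84 against Wildtype, the first of them with double mutant replicate 4 as the only array of its group. Against Pbrm1 mutants the difference was -0.69 ± 0.18 (adjusted p = 0.015, limma), and it was not called without double mutant replicate 4 (adjusted p = 0.081, range 1.3e-05 to 0.092). Pbrm1 mutants lay below every Wildtype array for Mcm6, but that difference was not called (-0.37 ± 0.18, adjusted p = 0.32). Neither was the interaction (-0.66 ± 0.25, adjusted p = 0.19).

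Mcm3 was 5.10, 5.31, 5.52 and 5.67 in double mutants, 5.65, 5.25, 5.44 and 5.08 in Vhl mutants, 4.92, 4.79, 5.16 and 4.89 in Pbrm1 mutants and 4.96, 4.95, 4.96 and 4.90 in Wildtype. Arrays of both Vhl-deleted groups exceeded every Wildtype array, with a wider spread in those groups. Mcm3 was called higher in double mutants against Wildtype (0.47 ± 0.14, adjusted p = 0.029, limma) and not in Vhl mutants (0.41 ± 0.14, adjusted p = 0.10). The call ended without double mutant replicates 3 or 4 (adjusted p = 0.081 and 0.13) or Wildtype replicates 1 or 4 (0.053 and 0.056), in a range of 0.0096 to 0.13. Mcm7 was 6.46, 6.24, 6.25 and 6.40 in double mutants, 6.20, 6.31, 6.22 and 6.32 in Vhl mutants, 6.04, 6.21, 6.00 and 5.86 in Pbrm1 mutants and 5.95, 6.08, 6.02 and 5.81 in Wildtype. It too stood above every Wildtype array in both Vhl-deleted groups, and it was called higher in double mutants (0.38 ± 0.09, adjusted p = 0.010, limma) but not in Vhl mutants (0.30 ± 0.09, adjusted p = 0.084). The double mutant call of Mcm7 was lost in 3 of 38 alternatives (highest adjusted p 0.10). Mcm7 is also listed in a probe set with several symbols, which was left out.

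**Figure D3:**
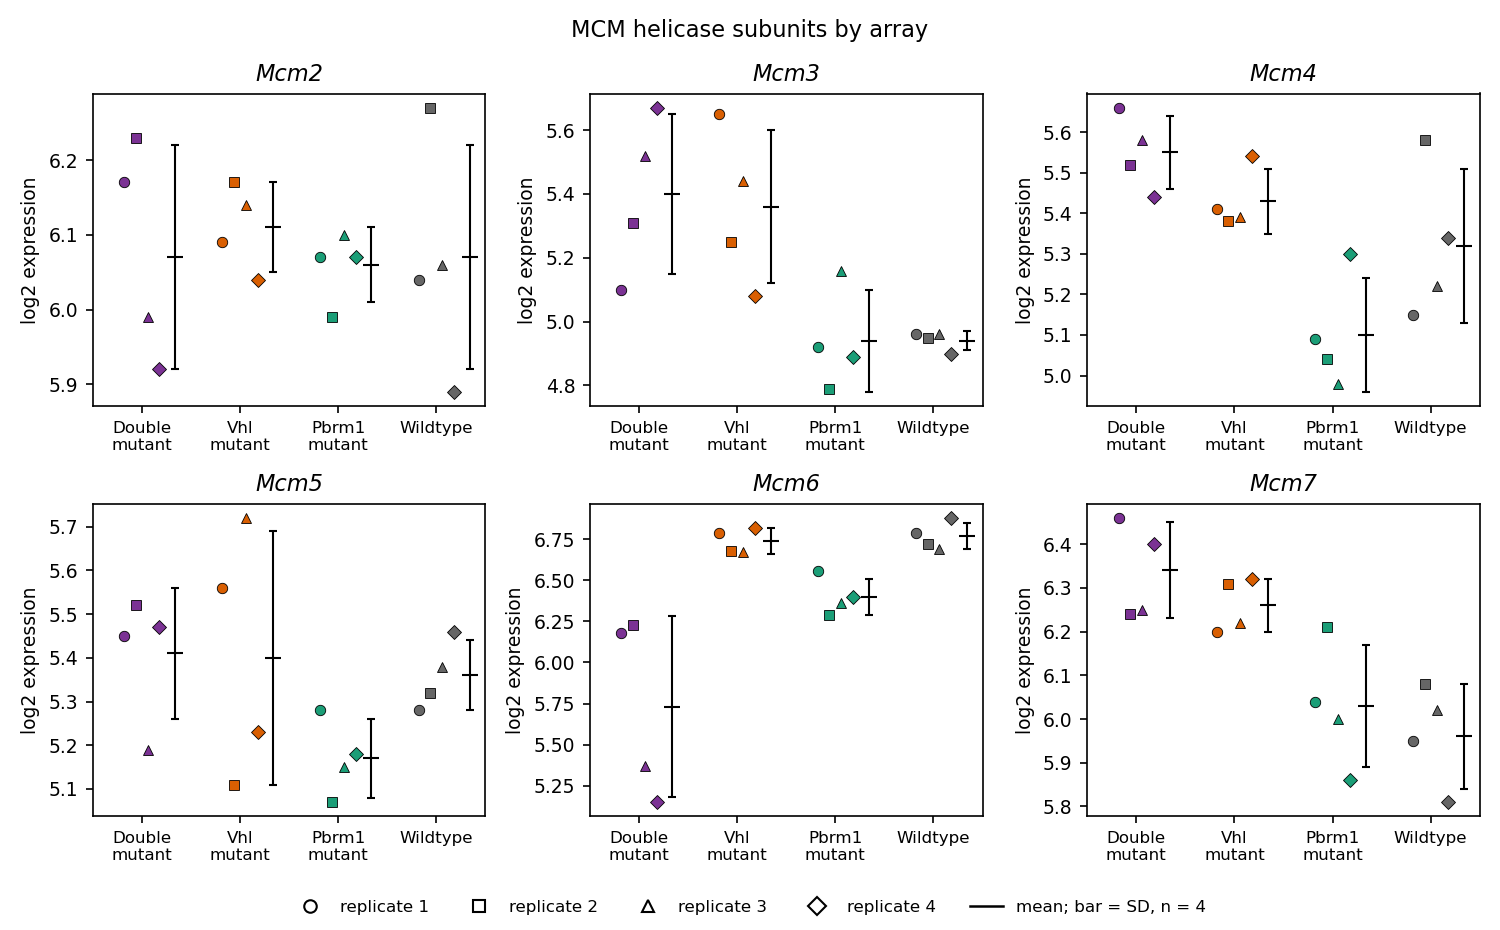
Log2 expression of the 6 MCM helicase subunits by array in the 4 groups; each symbol is 1 array, and the bar gives the mean ± SD (n = 4). Mcm6 is lowest on the 4 double mutant arrays (5.15 to 6.23), on which Mcm3 and Mcm7 exceed every Wildtype array.

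Double mutants against Pbrm1 mutants gave 6 called members, 5 higher and 1 lower, beside 10.2% of all genes (6.82% higher and 3.37% lower), and 4 of the 6 were MCM subunits. In all, 31 of 40 members lay above 0, beside 44.6% of all genes, and the groups did not overlap in 7 that were higher and 1 that was lower in double mutants, beside 9.71% and 7.75% of all genes. Mcm4 was 5.66, 5.52, 5.58 and 5.44 in double mutants, 5.41, 5.38, 5.39 and 5.54 in Vhl mutants, 5.09, 5.04, 4.98 and 5.30 in Pbrm1 mutants and 5.15, 5.58, 5.22 and 5.34 in Wildtype. The double mutant arrays lay above all Pbrm1 mutant arrays (0.44 ± 0.11, adjusted p = 0.010, limma), a call lost in 4 of 38 alternatives (highest adjusted p 0.43, with double mutant replicate 4 alone). Mcm3 (0.47 ± 0.14, adjusted p = 0.033), Mcm7 (0.31 ± 0.09, adjusted p = 0.036) and Top2a (0.51 ± 0.16, adjusted p = 0.047) were also higher than in Pbrm1 mutants. These 3 calls ended when single arrays were left out: for Mcm3 double mutant replicate 3 or 4 or Pbrm1 mutant replicate 1, 2 or 4 (adjusted p 0.062 to 0.14), and for Mcm7 double mutant replicate 1 or 4 or Pbrm1 mutant replicate 1, 3 or 4 (0.065 to 0.11). For Top2a they were double mutant replicate 1, 2 or 4, Pbrm1 mutant replicate 2, 3 or 4, Vhl mutant replicate 2 or 4 and Wildtype replicate 3 (0.050 to 0.15). The highest adjusted p over 38 alternatives was 0.22 for Mcm3, 0.33 for Mcm7 and 0.19 for Top2a.

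Rrm2, the regulated subunit of ribonucleotide reductase, was 5.25, 5.35, 5.24 and 5.25 in double mutants, 5.48, 5.49, 5.66 and 5.67 in Vhl mutants, 4.81, 4.84, 5.14 and 5.16 in Pbrm1 mutants and 5.20, 5.29, 5.22 and 5.28 in Wildtype. The 4 Vhl mutant arrays were the highest and the 4 Pbrm1 mutant arrays the lowest. Rrm2 was called higher in Vhl mutants against Pbrm1 mutants (0.59 ± 0.10, adjusted p = 4.5e-04, limma), in all 38 alternatives, with the difference down to 0.28 (adjusted p = 0.049, the highest of them) when its 2 probe sets were averaged. Against Wildtype neither Vhl mutants (0.33 ± 0.10, adjusted p = 0.071) nor Pbrm1 mutants (-0.26 ± 0.10, adjusted p = 0.17) passed. The other 5 S-phase members were called in no comparison, with differences from Wildtype between -0.19 and 0.36. Over all 16 arrays Mcm2 ranged from 5.89 to 6.27, Mcm5 from 5.07 to 5.72, Pcna, the polymerase clamp, from 7.14 to 7.59, and the thymidine pathway enzymes Tk1 and Tyms from 6.01 to 6.78 and from 6.64 to 7.23. Tk1 was 6.36, 6.32, 6.77 and 6.64 in double mutants, 6.78, 6.68, 6.33 and 6.34 in Pbrm1 mutants and 6.33, 6.07, 6.11 and 6.17 in Wildtype. Pbrm1 mutants stood above every Wildtype array, by less than the printed precision, without passing the test. Double mutants had a mean of 6.52, beside 6.53 for Pbrm1 mutants, and overlapped with Wildtype.

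As a class, 9 of 10 S-phase members lay above 0 both in double mutants (median 0.16) and in Vhl mutants (median 0.12) against Wildtype, and 3 of 10 in Pbrm1 mutants (median -0.03). Of the 10, none was called in Vhl mutants against Wildtype and 3 had an unadjusted p under 0.05, as did 16.4% of all genes. The per-array medians were 0.12 to 0.17 for double mutants, 0.08 to 0.26 for Vhl mutants, -0.14 to 0.00 for Pbrm1 mutants and -0.02 to 0.07 for Wildtype. Both Vhl-deleted groups thus lay above Wildtype on every array, and they overlapped each other, unlike for the mitotic members.

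Among the G1 members, Ccnd2 and Ccnd3 fell in Pbrm1 mutants against Wildtype, and Cdkn1b rose in double mutants. In Pbrm1 mutants 2 of 12 were called and 2 had an unadjusted limma p under 0.05, as did 3561 of all 22180 genes. In double mutants 1 of 12 was called, beside 12.2% of all genes. There 5 of 12 had an unadjusted p under 0.05, as did 5194 of all 22180 genes. Pbrm1 mutants against Wildtype gave 3 called members, all lower (Ccnd2, Ccnd3 and Nusap1), beside 4.04% of all genes called in either direction and 2.45% called lower. The groups did not overlap in 6 members that were lower and 1 that was higher (Tk1), beside 6.85% and 5.0% of all genes. Ccnd2, one of the cyclins that activate Cdk4 and Cdk6, was 6.90, 6.74, 6.86 and 6.77 in double mutants, 6.77, 6.70, 6.58 and 6.30 in Vhl mutants, 5.94, 6.02, 6.06 and 6.04 in Pbrm1 mutants and 6.64, 6.82, 6.21 and 6.56 in Wildtype. Every Pbrm1 mutant array lay below every other array, and the other 3 groups overlapped. Ccnd2 fell in Pbrm1 mutants 1.45-fold against Wildtype (-0.54 ± 0.12, adjusted p = 0.0088, limma) and was lower there than in Vhl mutants, which stood 0.58 ± 0.12 above them (adjusted p = 0.0026). The call against Wildtype was lost in 5 of 38 alternatives, among them averaging arrays with a shared number (adjusted p = 0.087) and leaving out Wildtype replicates 1 and 2 together (-0.37, adjusted p = 0.15), in a range of 9.8e-04 to 0.15. The call against Vhl mutants was lost in 2, with a highest adjusted p of 0.063 without Vhl mutant replicates 1 and 2. Double mutants, which lack Pbrm1 as well, stood 0.80 ± 0.12 above Pbrm1 mutants (adjusted p = 7.4e-05, limma, called in all 38 alternatives) and did not differ from Wildtype by the test (0.26 ± 0.12, adjusted p = 0.18). The interaction was 0.76 ± 0.16 (adjusted p = 0.015, limma), the 1 called among 40 members, beside 2.63% of all genes. It was not called when arrays with a shared number were averaged (adjusted p = 0.13, range 0.0014 to 0.19 over 37 alternatives).

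Ccnd3, a second D-type cyclin, was 7.45, 7.37, 7.51 and 7.39 in double mutants, 7.56, 7.44, 7.60 and 7.62 in Vhl mutants, 7.36, 7.30, 7.19 and 7.24 in Pbrm1 mutants and 7.74, 7.59, 7.43 and 7.61 in Wildtype. Pbrm1 mutants again lay below every other array. Ccnd3 fell in Pbrm1 mutants against Wildtype (-0.32 ± 0.07, adjusted p = 0.017, limma) and was lower than in Vhl mutants, which stood 0.28 ± 0.07 above them (adjusted p = 0.021). The first call ended without Pbrm1 mutant replicate 3 (adjusted p = 0.058) or Wildtype replicate 1 (0.064), and on averaging arrays with a shared number (0.15), in a range of 0.0069 to 0.21. The second ended without Pbrm1 mutant replicates 3 or 4 (0.067 and 0.053) or Vhl mutant replicates 3 or 4 (0.055 and 0.051), in a range of 0.012 to 0.23. Ccnd1, the remaining D-type cyclin, was 9.60, 9.42, 8.96 and 8.92 in double mutants, 8.87, 9.01, 9.55 and 9.52 in Vhl mutants, 9.20, 9.34, 8.88 and 8.82 in Pbrm1 mutants and 9.40, 9.41, 9.28 and 9.39 in Wildtype. In each mutant group replicates 1 and 2 stood apart from replicates 3 and 4, by 0.57 in double mutants, -0.59 in Vhl mutants and 0.42 in Pbrm1 mutants, against 0.07 in Wildtype. In Vhl and Pbrm1 mutants these pairs of arrays share a description number. No group difference of Ccnd1 was called.

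**Figure D4:**
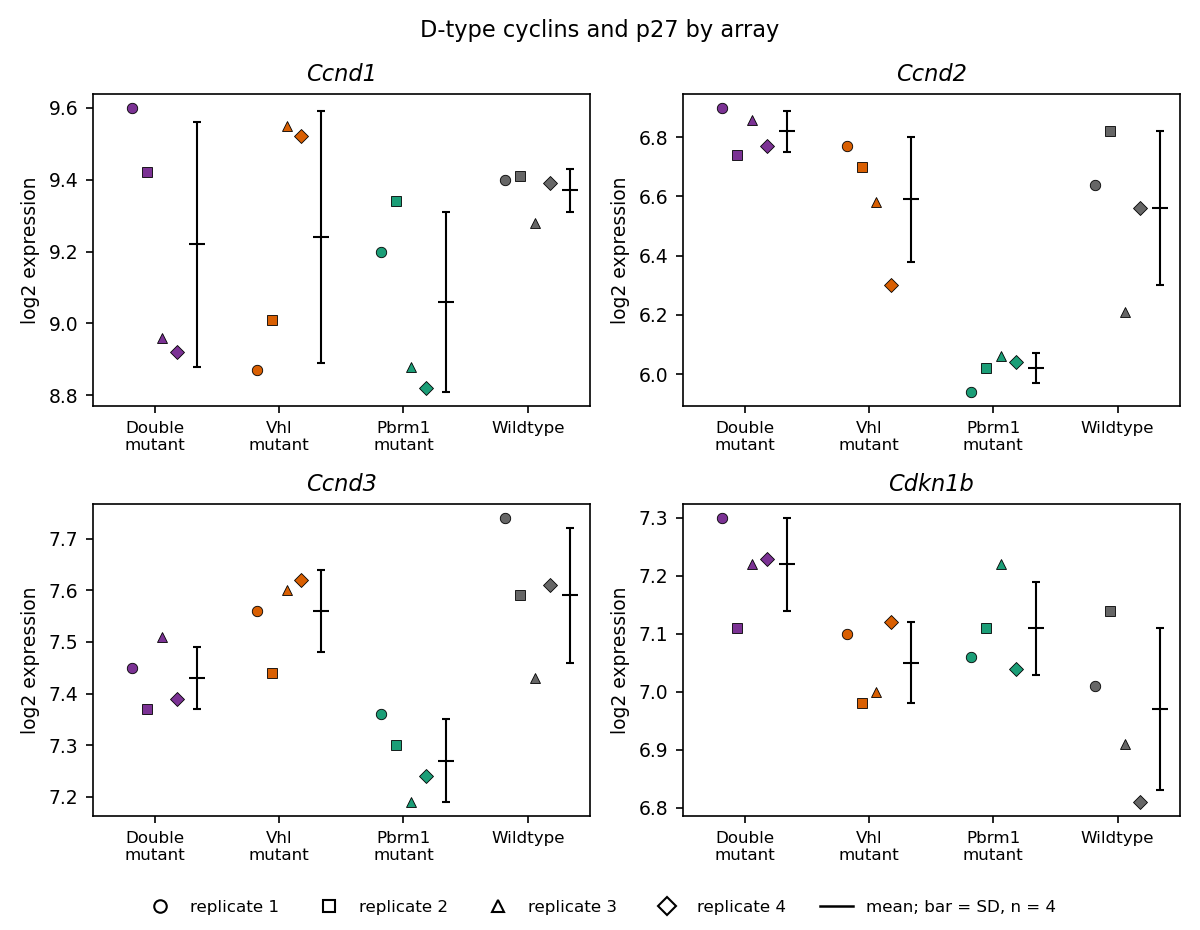
Log2 expression of the D-type cyclins Ccnd1, Ccnd2 and Ccnd3 and of Cdkn1b by array in the 4 groups; each symbol is 1 array, and the bar gives the mean ± SD (n = 4). Ccnd2 lies between 5.94 and 6.06 on the 4 Pbrm1 mutant arrays, below all others, and Ccnd1 splits into pairs of arrays within the mutant groups.

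Cdkn1b encodes p27, a Cip/Kip inhibitor of cyclin kinases. It was 7.30, 7.11, 7.22 and 7.23 in double mutants, 7.10, 6.98, 7.0 and 7.12 in Vhl mutants, 7.06, 7.11, 7.22 and 7.04 in Pbrm1 mutants and 7.01, 7.14, 6.91 and 6.81 in Wildtype. The double mutant and Wildtype arrays overlapped, and the call in double mutants was just inside the threshold (0.25 ± 0.08, adjusted p = 0.049, limma). It was lost in 24 of 38 alternatives, among them leaving out double mutant replicate 1, 3 or 4, Pbrm1 mutant replicate 1, 2 or 4, Vhl mutant replicate 2 or 3, or Wildtype replicate 1, 3 or 4 (adjusted p 0.051 to 0.14, range over all alternatives 0.011 to 0.39). The other 9 G1 members were called in no comparison, with differences from Wildtype between -0.31 and 0.27. Over all 16 arrays the D-cyclin kinases Cdk4 and Cdk6 ranged from 8.54 to 8.89 and from 6.87 to 7.63, Cdk2 from 6.02 to 6.61 and its partner Ccne1 from 4.37 to 5.04. The Ink4 inhibitors Cdkn2a, Cdkn2b and Cdkn2c ranged from 4.60 to 5.35, 5.63 to 6.27 and 5.19 to 5.92, and the transcription factor E2f1 from 5.06 to 5.57. Cdk2 stood above every Wildtype array in double mutants (6.39, 6.36, 6.32 and 6.61) and in Vhl mutants (6.37, 6.43, 6.41 and 6.48), against 6.02, 6.28, 6.27 and 6.06 in Wildtype, with a difference of 0.27 in each that was not called. As a class, G1 members had a median of 0.11 in double mutants, 0.06 in Vhl mutants and -0.03 in Pbrm1 mutants against Wildtype.

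Vhl mutants against Pbrm1 mutants separated the members most. Of the 40, 8 were called, all higher in Vhl mutants (Ccnd2, Ccnd3, Kif11, Mki67, Nusap1, Prc1, Rrm2 and Top2a), beside 7.47% of all genes in either direction and 4.71% called higher. Mki67 was 1.84-fold higher (0.88 ± 0.15, adjusted p = 4.3e-04, limma) and Top2a 1.45-fold (0.53 ± 0.16, adjusted p = 0.045). The Top2a call ended without any of Vhl mutant replicates 2, 3 and 4, Pbrm1 mutant replicates 2, 3 and 4, double mutant replicate 2 or Wildtype replicate 3 (adjusted p 0.052 to 0.15, range over 38 alternatives 0.0058 to 0.28). By class, 16 of 18 mitotic members lay above 0 with a median of 0.23, 9 of 10 S-phase members with a median of 0.23, and 10 of 12 G1 members with a median of 0.10, beside 47.8% of all genes and a median of -0.01. In 13 of the 40 members the 2 groups did not overlap, with Vhl mutants higher, beside 7.48% of all genes. Both mutant groups have the mixed background, so strain does not separate them by label. Their description numbers do lie apart, and what these mark cannot be told apart from genotype. Macrophage markers were called higher in 11 of 12 and endothelial markers in 8 of 8, and their part in this result was not tested.

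**Figure D5:**
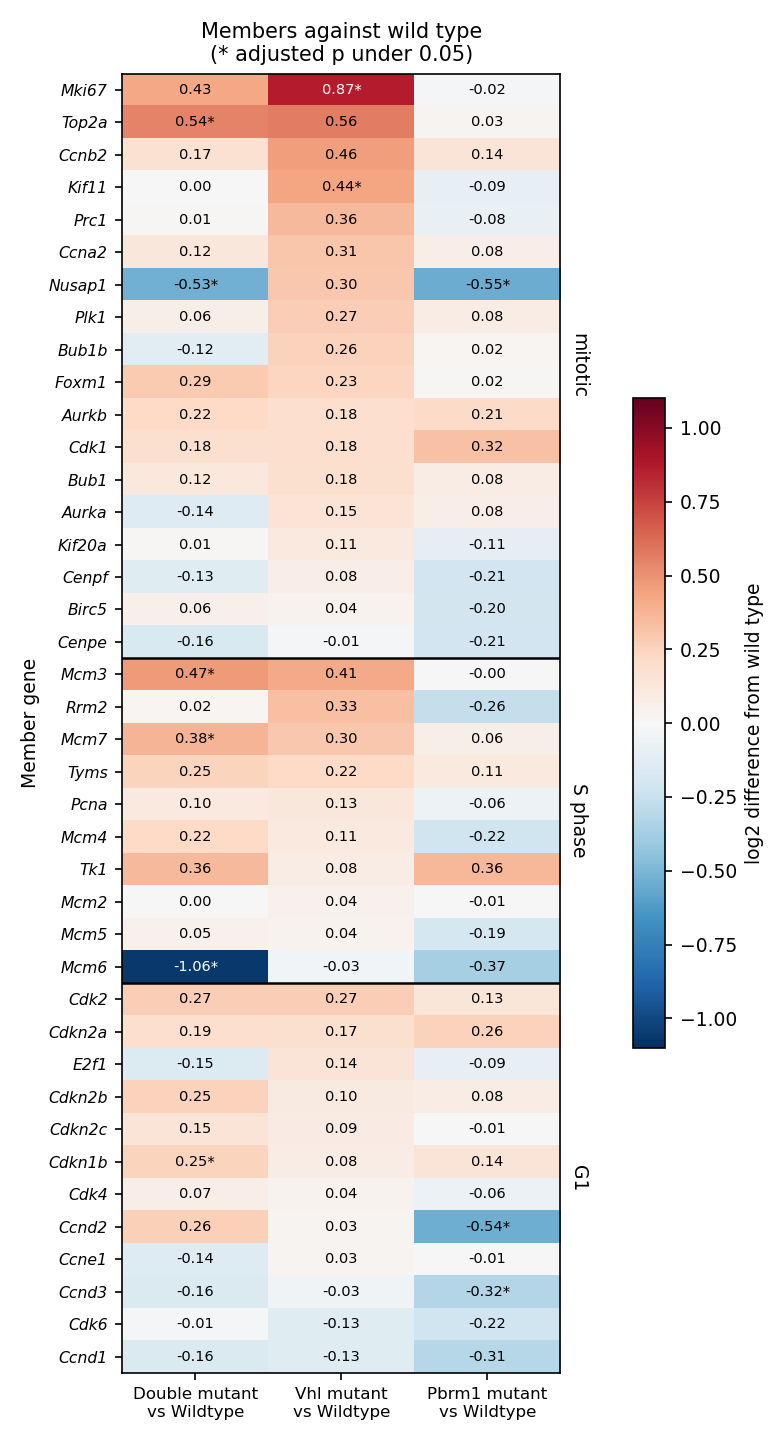
Log2 differences of the 40 measured members in double mutants, Vhl mutants and Pbrm1 mutants against Wildtype, grouped as mitotic, S-phase and G1 and sorted within a class by the Vhl mutant value; an asterisk marks an adjusted p under 0.05, and Bub1 and Birc5 lie near background. The middle column is above 0 for 17 of 18 mitotic members, with Mki67 at 0.87, and the deepest value is Mcm6 in double mutants at -1.06.

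Cell cycle genes beyond the members were read from a wider list of 113 names, of which 108 were measured. For its mitotic genes, in Vhl mutants against Wildtype 37 of 43 lay above 0 with a median of 0.20, and in double mutants against Vhl mutants 8 of 43 with a median of -0.10. None of these 43 was called by limma in either comparison, and 12 and 3 had an unadjusted p under 0.05, as did 16.4% and 19.4% of all genes. In double mutants against Wildtype 30 of 43 lay above 0 with a median of 0.12, beside 45.1% of all genes. For the interaction 12 of 43 lay above 0 with a median of -0.10, beside 49.6% of all genes. None was called in either of these. An unadjusted limma p under 0.05 was found for 10 and 5, as for 5194 and 3520 of all 22180 genes. S-phase genes of the list had medians of 0.09 for double, 0.10 for Vhl and 0.00 for Pbrm1 mutants against Wildtype. Over the whole list 5 of 108 genes were called higher and 1 lower in double mutants, where 6.64% of all genes were higher and 5.56% lower. In Vhl mutants 2 were higher and 1 lower, beside 2.04% and 1.79% of all genes, and in Pbrm1 mutants 2 were called, both lower, beside 2.45% of all genes. Between mutants, 10 of 108 were called in double against Pbrm1 mutants (9 higher) and 5 in double against Vhl mutants (4 higher). In Vhl against Pbrm1 mutants 4 of 108 were called, all higher. The shares of all genes called in either direction were 10.2%, 6.35% and 7.47% in the same order. The interaction had 2 called, beside 2.63% of all genes.

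Cdkn1a, which encodes the Cdk inhibitor p21 and is also among the injury markers, had a mean level of 8.63 for double mutants, 7.83 for Vhl mutants, 6.99 for Pbrm1 mutants and 7.02 for Wildtype. It rose in double mutants (1.61 ± 0.12, adjusted p = 1.2e-08, limma) and in Vhl mutants (0.82 ± 0.12, adjusted p = 3.2e-04) against Wildtype, and its interaction was 0.82 ± 0.17 (adjusted p = 0.011). Wee1, the kinase that holds Cdk1 inactive, had means of 6.87 for double mutants, 6.42 for Vhl mutants, 6.44 for Pbrm1 mutants and 7.20 for Wildtype. It fell in both single mutants (-0.78 ± 0.18 and -0.77 ± 0.18, adjusted p = 0.020 and 0.021, limma), with an interaction of 1.22 ± 0.26 (adjusted p = 0.015). The Wee1 mean of every mutant group, all of mixed background, lay below that of Wildtype, so strain cannot be told apart from genotype here. In double mutants against Wildtype Ccng2, an atypical cyclin of resting cells, rose by 0.51 ± 0.10, and Prim1 and Pola1, subunits of primase and its polymerase, by 0.41 ± 0.12 and 0.34 ± 0.10 (adjusted p = 0.0010, 0.025 and 0.029, limma). Chaf1b, a histone chaperone subunit, was higher in Vhl mutants (0.49 ± 0.13, adjusted p = 0.041), and Lin9, a MuvB subunit, was lower in Pbrm1 mutants (-0.50 ± 0.10, adjusted p = 0.0057) against Wildtype. Between mutants, double mutants were called higher than Pbrm1 mutants for Hells (0.54), a chromatin remodeller, Ndc80 (0.48), a kinetochore protein, and Atad2 (0.46), and higher than Vhl mutants for Tfdp1 (0.25), the dimer partner of E2F factors. Vhl mutants were called higher than Pbrm1 mutants for Nuf2 (0.49), which pairs with Ndc80, and Smc2 (0.35), a condensin subunit. Calls of single genes of the wider list were not followed over the alternatives.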

How the data were processed

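Kidney cortex RNA of 16 mouse samples was hybridised to Affymetrix arrays. The authors deposited log2 values; the submitters' processing notes name RMA and Affymetrix Expression Console 1.4. RMA subtracts background, quantile normalizes and summarises probes, so low levels are compressed. Arrays have no read depth, and precision depends on how many there are. Of 41345 probe sets, 23521 had 1 gene symbol in the platform annotation, 1814 several and 16010 were unlisted. Symbols were updated through Entrez IDs (23328 matched, RefSeq GRCm38.p6). For the 1082 genes with several probe sets the one with the highest mean was kept.

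limma 3.58.1 (R 4.3.3) fitted the 4 groups in 1 model with the description number as a random block (duplicateCorrelation, 0.0838), an eBayes variance trend and Benjamini-Hochberg adjustment over 22180 genes, and was tested on simulated data. Values were tabulated and plotted with Python 3.11.15. Same-numbered replicates of different groups did not deviate together (correlations -0.07 to 0.06 over 24 pairs), so the replicate number was no block. The members, the wider list, the markers and the promoter motifs were chosen with earlier results of these data known. All members are given by level, and differences with SE and adjusted p mainly for members called in at least 1 of 7 comparisons. Of the wider list the 4 called genes of largest change per comparison were named. Alternatives were no block, averaging by description number, the replicate number as a block, no trend, quantile normalization, median centring, a filter on low genes (17048 kept), array weights, merging double mutant replicates 2 and 3, averaging the probe sets of each gene, a fit of only the groups compared, a minimum change of 1.5-fold, and fits lacking 1 array or 1 number. Promoters are from RefSeq. Red blood cell markers were not analysed here.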

Additional observations from a re-analysis of the deposited data

Results flagged for a closer look

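Among 160 sets of 4 arrays (each member in each group), 8 held an array whose gap to the nearest other array took up more of the group's range than Dixon's 95% critical value. Chance marks about 1 in 20 such sets, which is the share found here. In Vhl mutants these were Mki67 replicate 4 at 6.65 (others 6.30 to 6.34), Mcm4 replicate 4 at 5.54 (others 5.38 to 5.41) and Cenpe replicate 2 at 4.18 (others 4.36 to 4.39). In double mutants it was Rrm2 replicate 2 at 5.35 (others 5.24 to 5.25), and in Pbrm1 mutants Kif11 replicate 3 at 4.16 (others 3.89 to 3.93). In Wildtype they were Ccnd1 replicate 3 at 9.28 (others 9.39 to 9.41), Cdkn2b replicate 2 at 5.88 (others 5.70 to 5.72) and Plk1 replicate 3 at 4.95 (others 4.78 to 4.81).

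For Ccnd2 the fitted difference between groups with and without Pbrm1 deletion was not the same with and without Vhl deletion. The interaction was 0.76 ± 0.16 (adjusted p = 0.015, limma), called in 1 of 40 members beside 2.63% of all genes. It was not called when arrays with a shared number were averaged (adjusted p = 0.13, limma). Wildtype enters the interaction, so strain cannot be told apart from genotype in it. Double mutants stood 0.22 ± 0.12 above Vhl mutants, and Pbrm1 mutants against Wildtype gave -0.54 ± 0.12.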

How the results depend on the processing

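Of 29 called member values, 8 stayed past the threshold in every alternative and 0 changed sign. Averaging arrays that share a description number left 5 members called in Vhl against Pbrm1 mutants (8 in the report), 1 in Vhl mutants against Wildtype (2), and 0 both in Pbrm1 mutants against Wildtype (3) and in the interaction (1), where 4 members each had an unadjusted limma p under 0.05. It has fewer values per group, and over all genes it called 1729, 246 and 274 in double, Vhl and Pbrm1 mutants against Wildtype (2706, 851 and 895 in the report's fit), 710 in double against Vhl mutants (1408), 1398 in double against Pbrm1 mutants (2260), 916 in Vhl against Pbrm1 mutants (1656) and 99 for the interaction (583). No block on the number gave 4 in Vhl mutants against Wildtype, beside 1132 of all genes. A 1.5-fold minimum left 1 in double mutants and 1 in Vhl mutants against Wildtype, 2 in double against Pbrm1 mutants, 3 in Vhl against Pbrm1 mutants and 0 in Pbrm1 mutants against Wildtype, also at an unadjusted p (0); over all genes it left 796, 262 and 235 in double, Vhl and Pbrm1 mutants against Wildtype, 408 in double against Vhl mutants, 748 in double against Pbrm1 mutants, 562 in Vhl against Pbrm1 mutants and 340 for the interaction. For the interaction, no block called 884 genes and no variance trend 337. The next 2 alternatives were chosen after seeing the data. Without the 3 arrays of highest adipose markers (double mutant replicate 3, Vhl mutant replicate 2 and Pbrm1 mutant replicate 3) the counts were 1 in double against Pbrm1 mutants, 5 in Vhl against Pbrm1 mutants, 1 in Pbrm1 mutants against Wildtype and 0 for the interaction (3 at an unadjusted p); over all genes 564 and 501 were called in Vhl and Pbrm1 mutants against Wildtype, 830 in double against Vhl mutants and 303 for the interaction. All-gene counts of this fit in double against Pbrm1 and in Vhl against Pbrm1 mutants are not given here. The changes in members there therefore cannot be told apart from a change in calling over all genes. The cause was not tested. Counting double mutant replicate 3 with replicate 4 moved no count of called members by over 1.5 times.

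Leaving out 1 array or 1 description number gave 2 to 7 called members in double mutants against Wildtype, 1 to 4 in Vhl mutants and 0 to 4 in Pbrm1 mutants against Wildtype, 2 to 5 in double against Vhl mutants, 2 to 7 in double against Pbrm1 mutants, 5 to 9 in Vhl against Pbrm1 mutants and 0 to 2 for the interaction. All-gene counts of the fits that leave out arrays are not given here. A change in members therefore cannot be told apart from a change in calling over all genes. Without double mutant replicate 4, double mutants had 2 called against Wildtype and 2 against Pbrm1 mutants. Without Wildtype replicate 1 double mutants had 3 called against Wildtype, without double mutant replicate 1 there were 5 against Vhl mutants, without Pbrm1 mutant replicate 3 there was 1 in Pbrm1 mutants, and without Vhl mutant replicate 3 or Wildtype replicate 2 there was 1 in Vhl mutants against Wildtype. Leaving out the number of double mutant replicates 1, 2 and 3 leaves 1 array, assumed to vary like the other groups. The replicate block gave 6, 3, 3, 4, 6, 8 and 1 called members in double, Vhl and Pbrm1 mutants against Wildtype, double against Vhl, double against Pbrm1, Vhl against Pbrm1 mutants and the interaction. Over all genes it called 3075, 1098, 1062, 1702, 2552, 1879 and 839 in the same order.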

Other observations

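Neighbouring genes were read for the members with the clearest differences, as 5 measured genes on each side in the RefSeq order, chosen after the members' values were seen. Around Nusap1 on chromosome 2, 4 of 10 neighbours were called in double mutants against Wildtype, beside 12.2% of all genes: Exd1 at 0.59, Oip5os1 at -0.27, Ndufaf1 at -0.51 and Ltk at -0.36. Ndufaf1, which encodes an assembly factor of respiratory complex I, was also lower in Pbrm1 mutants against Wildtype (-0.31, adjusted p = 0.035, limma). Around Mcm6 on chromosome 1, 1 of 10 was called in double mutants against Wildtype (Ubxn4, -0.28), and around Ccnd2 on chromosome 6 likewise 1 of 10 (Tigar, -0.34), with differences of the other neighbours in Pbrm1 mutants against Wildtype between -0.19 and 0.16 around Ccnd2.

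Pairs of arrays within a group stood apart for some members. In Pbrm1 mutants the mean Cdk1 level was 4.31 on replicates 1 and 2 and 5.12 on replicates 3 and 4, a difference of -0.81, and in double mutants Mcm6 differed by 0.94 between replicates 1 and 2 (mean 6.2) and replicates 3 and 4 (mean 5.26). Replicates 1 and 2 did not overlap with 3 and 4 in 16 of 40 double mutant, 9 of 40 Vhl mutant, 19 of 40 Pbrm1 mutant and 11 of 40 Wildtype comparisons of members, beside 42.5%, 40.8%, 39.6% and 42.3% of all genes in the same groups.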
